A study of Mus musculus with 27 samples.

Results

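Hippocampal microRNAs (miRNAs) were compared between ovariectomized (OVX) and sham-operated mice pooled over both treatments of the study. The comparison used the 12 miRNA libraries with a deposited table, out of 27 libraries in the series: 6 from OVX mice and 6 from sham mice. Each surgery group held 3 libraries from mice given saline and 3 from mice given Xmo, the label's short form for xanthohumol, a prenylated flavonoid of hops. All were hippocampi of ICR mice, an outbred stock. The sources used here give no age, dose or interval after surgery. The table listed 1387 mature miRNAs, of which 1357 had at least 1 read in these libraries and 605 had enough reads to be tested. Each library held between 9660869 and 10962296 miRNA reads. The replicates are numbered samples of a group, and where they do not come from separate animals the p-values measure only the spread between these samples.

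Ovariectomy removes the main source of circulating estrogens, and hippocampal neurons carry estrogen receptors. A miRNA is a short RNA cut from a hairpin precursor. Either arm of the hairpin, named 5p or 3p, can be loaded into an Argonaute protein, where bases 2 to 8, the seed, pair with target transcripts and lower their translation or stability. Many miRNAs lie in clusters that are transcribed together or inside introns of host genes, so arms, cluster neighbours and host transcripts give further readouts of a locus.

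The sequences below are those of the miRNAs with the smallest p-values for surgery and of the arms and seed relatives they are compared with. They were taken from RefSeq (GRCm38.p6), run 5′ to 3′, and carry the seed in capitals.
miR-128-2-5p: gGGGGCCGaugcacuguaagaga
miR-128-1-5p: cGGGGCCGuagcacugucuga
miR-128-3p: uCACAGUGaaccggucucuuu
miR-3099-5p: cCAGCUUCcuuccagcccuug
miR-3097-3p: cUCAGACCuuucuaccugucag
miR-212-5p: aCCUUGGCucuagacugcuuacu
miR-212-3p: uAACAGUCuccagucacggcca
miR-130a-3p: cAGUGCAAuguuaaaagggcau
miR-195a-5p: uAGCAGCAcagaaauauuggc
miR-26a-2-3p: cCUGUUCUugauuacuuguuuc
miR-183-5p: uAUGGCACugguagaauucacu
miR-451a: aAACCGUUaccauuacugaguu

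No miRNA passed the test for an effect of surgery. In the additive edgeR quasi-likelihood model, with treatment as a covariate, 0 of 605 miRNAs (0%) had a Benjamini-Hochberg adjusted p under 0.05, and the smallest adjusted p was 0.337. At an unadjusted p under 0.05 the same edgeR test held 17 miRNAs (2.81%), 8 of them higher (1.32%) and 9 lower (1.49%) in OVX. All 17 had the same sign under saline and under Xmo. A small p in a test pooled over both treatments favours miRNAs of equal sign. That count is therefore no evidence of a shared direction. DESeq2 on the same counts called 1 miRNA, miR-128-2-5p, with a log2 fold change of 0.88 and an adjusted p of 0.00342. The values below therefore describe miRNAs that did not pass the edgeR test, and the 4 with the smallest p-values are given library by library.

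Across all tested miRNAs the log2 fold changes under saline and under Xmo showed no shared direction. The within-saline and the within-Xmo comparison share no library. Their log2 fold changes had the same sign for 287 of 605 miRNAs (47.4%), 124 higher and 163 lower in OVX under both treatments, and opposite signs for 318 (52.6%). Across the 605 miRNAs, which are not independent replicates, Pearson's r between the log2 fold changes was −0.13 and Spearman's rho −0.07. An unadjusted edgeR p under 0.05 was reached by 28 miRNAs under saline (4.63%) and 20 under Xmo (3.31%). Of these, 2 reached it under both treatments in the same direction (0.331%): miR-128-2-5p, higher in OVX, and miR-212-5p, lower in OVX. For 1 miRNA, miR-155-5p, which takes part in inflammatory responses of myeloid cells, it was reached with opposite signs, at a log2 fold change of −0.62 under saline and 0.65 under Xmo. In the edgeR test of the difference between treatments, the surgery by treatment interaction, 0 of 605 (0%) passed and the smallest adjusted p was 0.647. At an unadjusted p under 0.05 that test held 42 miRNAs (6.94%).

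**Figure D1:**
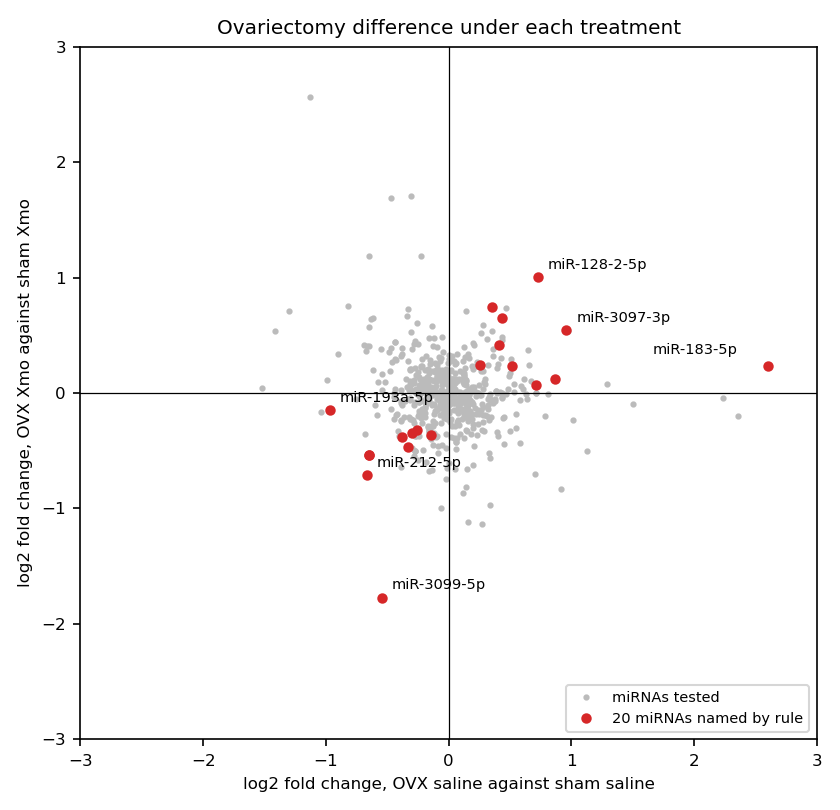
Log2 fold change of OVX against sham under saline (x axis) and under Xmo (y axis) for 602 of 605 tested miRNAs (grey); 3 lie beyond the axes. Red points are the 20 miRNAs named by rule, which by that rule lie where both signs agree; the grey cloud is centred on 0 with no slope upwards.

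The miR-128-2 hairpin lies on the minus strand of chromosome 9, within the gene Arpp21, and makes miR-128-2-5p (chr9:112118679-112118701) and miR-128-3p. miR-128 is a brain-enriched miRNA that restrains neuronal excitability. On the scale of TMM-scaled CPM, the reads of a miRNA relative to the scaled size of its library (below, CPM), miR-128-2-5p measured 9.56, 16.4 and 13.9 in the sham saline libraries and 12.6, 7.69 and 7.63 in the sham Xmo libraries. The OVX libraries gave 27.3, 20.9 and 17.9 with saline and 20.8, 19.1 and 16.2 with Xmo. OVX libraries lay above the sham libraries of the same treatment without overlap under both treatments. In all, 3 of the 605 miRNAs (0.496%) were so separated in the same direction under both, miR-128-2-5p and miR-3097-3p with OVX above and miR-3099-5p with OVX below sham. As many, 3, were separated in opposite directions under saline and Xmo. For miR-128-2-5p over both treatments, the highest sham library, at 16.4 CPM, lay just above the lowest OVX library, at 16.2 CPM. The log2 fold change was 0.86 (SE 0.19, edgeR p 0.000558, adjusted p 0.337), a 1.82-fold ratio with a 95% interval of 1.37 to 2.41. It was 0.73 under saline and 1.01 under Xmo. These levels rest on 72 to 284 reads per library.

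The dominant arm, miR-128-3p, is made by the hairpins on chromosome 9 and on chromosome 1 (within R3hdm1), and its reads cannot be assigned to one of them. It measured between 3281 and 5477 CPM in the sham libraries (median 5028) and between 4846 and 6446 CPM in the OVX libraries (median 5729). The groups overlapped. Its log2 fold change was 0.25 (SE 0.11, edgeR p 0.0381, adjusted p 0.987), at 0.26 under saline and 0.24 under Xmo. The 5p arm of the chromosome 1 hairpin, miR-128-1-5p, has the same seed as miR-128-2-5p and measured 40.1 to 67.2 CPM in sham and 42.5 to 65.4 CPM in OVX libraries. Its log2 fold change was 0.08 (95% interval −0.26 to 0.43). Neither host transcript passed the test of surgery in the mRNA libraries, with a log2 fold change of −0.09 (edgeR adjusted p 0.714) for Arpp21, which encodes a phosphoprotein of striatal and cortical neurons, and −0.02 (adjusted p 0.934) for R3hdm1. For Arpp21 the value was −0.40 under saline (unadjusted edgeR p 0.00523) and 0.18 under Xmo (p 0.132), and the difference between treatments had an adjusted edgeR p of 0.109.

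miR-212-5p (chr11:75173403-75173425, plus strand) comes from the miR-132 and miR-212 locus, which is transcribed after neuronal activity and acts on dendrites and synapses. It measured 630, 545 and 368 CPM in the sham saline group, against 399, 541 and 712 CPM in the sham Xmo group. OVX libraries gave 344, 324 and 304 CPM with saline and 438, 219 and 351 CPM with Xmo. Under saline every OVX library lay below every sham library, and under Xmo the highest OVX library lay above the lowest sham library. The log2 fold change was −0.69 (SE 0.19, edgeR p 0.00342, adjusted p 0.517), −0.67 under saline and −0.71 under Xmo. At 2227 to 7562 reads per library it was the best covered of the 4 leading miRNAs.

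The other products of that locus had log2 fold changes between 0.00 and 0.15. miR-212-3p, from the other arm of the same hairpin, measured 565 to 665 CPM in sham and 528 to 702 CPM in OVX libraries. Its log2 fold change was 0.00, with a 95% interval of −0.18 to 0.19. The neighbour miR-132-5p had 0.01 (−0.20 to 0.23), and miR-132-3p, which lowers p250GAP in growing dendrites, had 0.15 (−0.35 to 0.65). The difference between the arms of miR-212 was not tested. The transcript that spans the locus, 1700016P03Rik, had a log2 fold change of −0.20 (edgeR adjusted p 0.779), but 33.3% of its span is shared with Ovca2 on the opposite strand and no source used here gives the strand setting of the counting.

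miR-3097-3p and miR-3099-5p were the only miRNAs whose 6 OVX and 6 sham libraries did not overlap, 2 of 605 (0.331%). With scaling by library size only, or with no filter on low counts, the 2 were miR-128-2-5p and miR-3097-3p. If OVX and sham did not differ, 0.216% of miRNAs would be so separated by chance. miR-3097-3p and miR-3099-5p are both rare. miR-3097-3p (chr5:35021094-35021115, plus strand, within Rgs12) measured 1.46, 2.01 and 1.53 CPM in the sham libraries with saline, and 1.56, 2.24 and 1.88 CPM in those with Xmo. The OVX values were 2.50, 2.95 and 4.28 CPM with saline and 3.33, 2.36 and 2.60 CPM with Xmo. All OVX libraries were higher. The log2 fold change was 0.75 (SE 0.19, edgeR p 0.00172, adjusted p 0.346), 0.96 under saline and 0.54 under Xmo, from 15 to 45 reads per library. Rgs12, its host gene and a regulator of G protein signalling, had a log2 fold change of 0.26 (edgeR adjusted p 0.319).

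miR-3099-5p (chr7:6803600-6803620, plus strand, within Usp29) measured 1.37, 1.11 and 1.62 CPM in the sham libraries with saline, and 2.05, 1.496 and 1.60 CPM in those with Xmo. Among the OVX libraries the values were 1.06, 0.886 and 0.855 CPM with saline and 0.685, 0.295 and 0.500 CPM with Xmo. All OVX libraries were lower, though OVX saline replicate 1 and sham saline replicate 2 each held 11 reads and differed only by scaling. The log2 fold change was −1.11 (SE 0.26, edgeR p 0.00114, adjusted p 0.344), with −0.55 under saline and −1.78 under Xmo. Under saline the unadjusted edgeR p was 0.109. The difference between treatments had an unadjusted edgeR interaction p of 0.0203 and an adjusted p of 0.647. Under Xmo alone the adjusted edgeR p was 0.0638, the smallest of that comparison. Only 3 to 21 reads per library lie behind these levels. Its partner arm miR-3099-3p, at 17.1 CPM on average, had a log2 fold change of −0.08 (95% interval −0.36 to 0.19). The imprinted host gene Usp29 had −0.23 (edgeR adjusted p 0.5261).

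**Figure D2:**
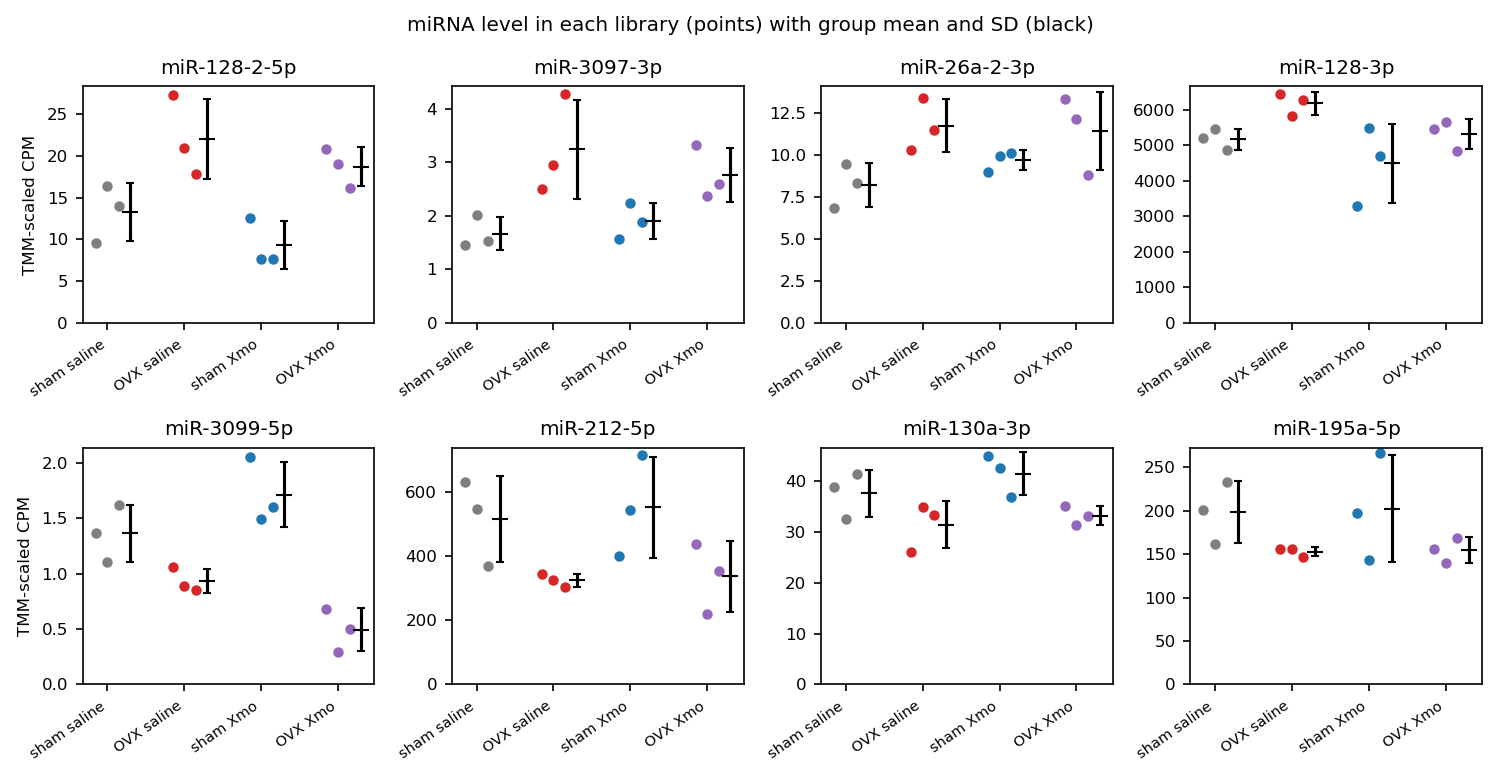
Level of 8 miRNAs in each library as TMM-scaled CPM (y axes start at 0), by group; black marks are group mean and SD of 3 libraries. The upper row holds miRNAs with positive and the lower row miRNAs with negative log2 fold changes of OVX against sham; miR-3097-3p and miR-3099-5p show no overlap between OVX and sham.

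With these 4, the rule for naming took 20 miRNAs, those with the smallest p and the same sign under both treatments, 10 higher and 10 lower in OVX. The other 16 had edgeR adjusted p-values of 0.987. The absolute fold over all 20 ran from 1.19 for miR-128-3p to 2.66 for miR-183-5p. They were rarer than the tested miRNAs as a whole, with a median of 8.71 CPM against 21.03 CPM, and 10 of the 20 lay under 10 CPM. Their median length was 22 bases in the named and in all tested miRNAs. Median GC content was 44.2% against 47.8%, and 6 of the 20 began with U, against 246 of 605 (40.7%). The deposited counts of miR-669a-3p and miR-669o-3p are identical, so they count as 1 measurement, and no other pair of the 20 shares a seed. Over all tested miRNAs 15 had counts identical to those of a relative, as near-identical sequences can.

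Among the better covered named miRNAs with lower OVX levels, miR-195a-5p, which belongs to the miR-15 and miR-16 family of cell cycle regulators, measured 143 to 267 CPM in sham (median 199) and 139 to 169 CPM in OVX (median 156). The groups overlapped, and the sham libraries were the more variable, with an SD of 45.2 against 10.1 CPM. The log2 fold change was −0.38 (SE 0.14, edgeR p 0.0202), at −0.38 under saline and −0.39 under Xmo. Its seed relatives gave −0.06 for miR-16-5p, −0.12 for miR-15a-5p, 0.20 for miR-15b-5p and 0.12 for miR-322-5p. Its cluster neighbour miR-497a-5p, also of that seed, gave −0.01 (95% interval −0.19 to 0.17).

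miR-130a-3p, a miRNA of vascular and blood cells, measured 32.6 to 45.0 CPM in sham (median 40.1) and 26.2 to 35.2 CPM in OVX (median 33.2). Only the sham saline library at 32.6 CPM fell within the OVX range. The log2 fold change was −0.29 (SE 0.10, edgeR p 0.0171). Its tested seed relatives were miR-301a-3p at 0.06 (95% interval −0.19 to 0.31) and miR-301b-3p at −0.39 (−0.89 to 0.12). The latter was rare, at 1.05 CPM on average. miR-3071-3p, within and on the strand of Rtl1 in the imprinted Dlk1-Dio3 region, measured 85.9 to 143 CPM in sham and 91.0 to 116 CPM in OVX. Its interval, −0.52 to 0.01, included 0. miR-7080-3p, within Cpne7, had −0.32 (edgeR p 0.0367), while its partner arm miR-7080-5p had 0.10.

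The remaining named miRNAs with lower OVX levels were rare. miR-193a-5p, at 1.61 CPM on average, had a log2 fold change of −0.55, with −0.97 under saline and −0.15 under Xmo. miR-325-3p, from an X-linked hairpin, had −0.40 (−0.33 and −0.47). miR-669a-3p and miR-669o-3p of the Sfmbt2 cluster, a placenta-associated imprinted cluster, had −0.59 (−0.65 and −0.54).

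Besides miR-128-2-5p, the named miRNAs with higher OVX levels include 3 minor arms of hairpins whose other arm is abundant. miR-26a-2-3p measured 6.83 to 10.1 CPM in sham (median 9.23) and 8.80 to 13.4 CPM in OVX (median 11.8). Its log2 fold change was 0.38 (SE 0.14, edgeR p 0.0222), while the abundant arm miR-26a-5p, at 101418 CPM on average, had 0.03 (95% interval −0.11 to 0.17). let-7c-1-3p had 0.55 (edgeR p 0.0351), while let-7c-5p had −0.10. let-7a-2-3p had 0.39 (edgeR p 0.0290), almost wholly from saline (0.71) and not from Xmo (0.07). The difference of let-7a-2-3p between treatments had an unadjusted edgeR interaction p of 0.0310 and an adjusted p of 0.669.

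miR-183-5p, a sensory-neuron miRNA that is also made in pineal gland and retina, had the largest named log2 fold change, 1.41 (SE 0.58, edgeR p 0.0313, adjusted p 0.987). It measured 11.2 to 50.0 CPM in sham (median 23.8) and 28.6 to 205 CPM in OVX (median 42.6). The value of 205 CPM came from OVX saline replicate 3, and the next highest library measured 66.0 CPM. Without that library the log2 fold change was 0.69. The difference was carried by saline (2.60) and was small under Xmo (0.23). Its cluster neighbours miR-182-5p and miR-96-5p had log2 fold changes of 1.08 and 1.04 over both treatments, 2.24 and 2.36 under saline, and −0.04 and −0.19 under Xmo. Without OVX saline replicate 3 their values over both treatments were 0.53 and 0.25.

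The same library was high in miRNAs of other tissue. The 8 tested miRNAs of choroid plexus and ependyma, led by miR-204-5p, summed to 52044 CPM in OVX saline replicate 3, 51832 CPM in OVX Xmo replicate 1 and 44592 CPM in sham Xmo replicate 3. The other 9 libraries summed to at most 22041 CPM, 8145 to 44592 CPM being the sham range and 8654 to 52044 CPM the OVX range. With these 3 libraries left out, 0 miRNAs passed the edgeR test, 18 of 609 had an unadjusted p under 0.05, and the smallest adjusted p was 0.938. The log2 fold changes were then 0.83 for miR-128-2-5p, −0.68 for miR-212-5p, 0.56 for miR-3097-3p, −1.14 for miR-3099-5p and 0.73 for miR-183-5p. The median of the choroid plexus and ependyma list itself was 0.27 in all libraries, −0.11 without OVX saline replicate 3, 0.66 without sham Xmo replicate 3 and −0.05 without the 3 libraries. Of the 3 libraries, OVX saline replicate 3 held 205 CPM of miR-183-5p, OVX Xmo replicate 1 held 66.0 CPM and sham Xmo replicate 3 held 50.0 CPM. Sham Xmo replicate 1, with the lowest choroid plexus and ependyma sum (8145 CPM), held 48.1 CPM. The part of choroid plexus tissue in the miR-183 values was not tested.

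miR-451a, a miRNA of red blood cells cut by Argonaute 2 rather than Dicer, measured 4578 to 8901 CPM in sham (median 7275) and 6405 to 12685 CPM in OVX (median 9353). The groups overlapped. Its log2 fold change was 0.41 (SE 0.18, edgeR p 0.0406), at 0.41 under saline and 0.42 under Xmo. The red blood cell list, in which it is the largest member, summed to 4746 to 9209 CPM in sham and 6556 to 12927 CPM in OVX libraries. Of its 7 members, 6 had positive log2 fold changes (median 0.20, against −0.01 over all 605 miRNAs), miR-486a-5p and miR-486b-5p with identical counts. The list median was 0.38 under saline and 0.02 under Xmo, where miR-486a-3p (−0.09) and miR-486b-3p (−0.19) were negative. Without sham Xmo replicate 1 the median over both treatments was 0.095. The cluster neighbour miR-144-3p had 0.31 (95% interval −0.23 to 0.84). The part of blood left in the tissue was not tested, and in bulk tissue more cells of a type and more RNA per cell cannot be told apart.

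miR-200a-5p, of the epithelial miR-200 family, closed the named set together with miR-7092-3p. It measured 0.906 to 2.83 CPM in sham and 1.83 to 3.25 CPM in OVX, with a log2 fold change of 0.48 (edgeR p 0.0633). Its arm partner miR-200a-3p had 0.40, and the neighbours miR-429-3p, miR-200b-3p and miR-200b-5p had 0.38, 0.26 and 0.68. In the family as a whole 6 of 7 tested members were positive (median 0.40), with a median of 0.87 under saline and 0.03 under Xmo, and of 0.24 over both without OVX saline replicate 3. miR-7092-3p, within Fam50a, had 0.55 (edgeR p 0.0568) at 0.90 CPM on average.

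**Figure D3:**
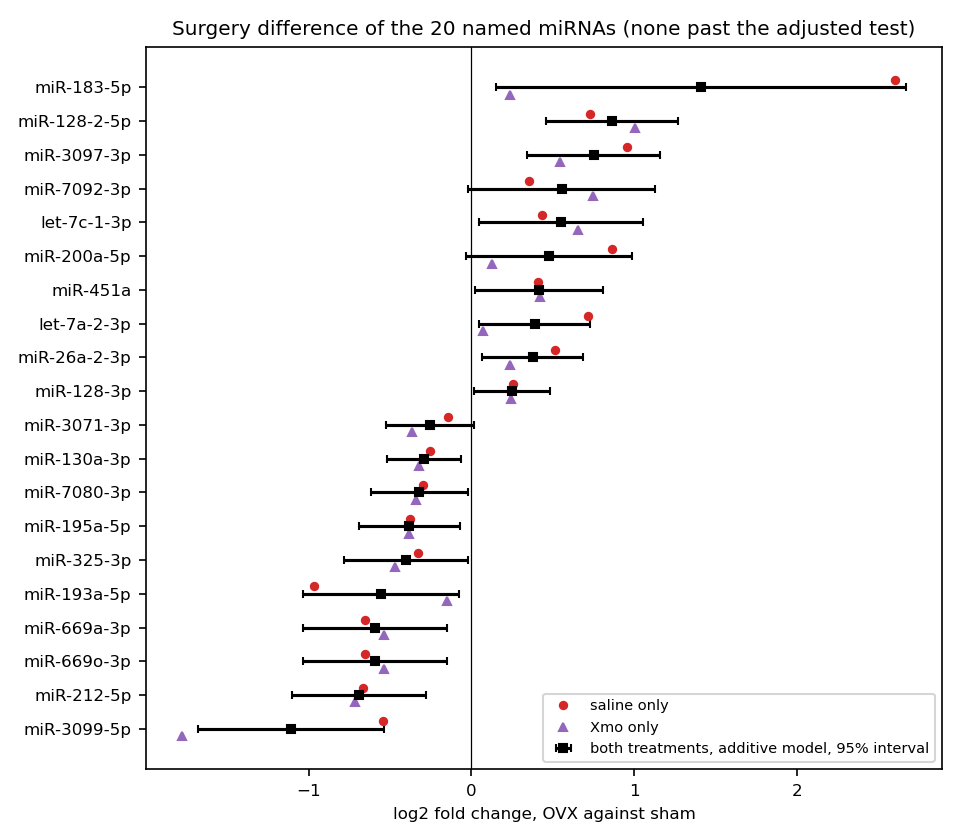
Log2 fold change of OVX against sham (x axis) for the 20 named miRNAs, ordered by size: black squares with 95% intervals from the additive model, red circles under saline, purple triangles under Xmo. Intervals of miR-7092-3p, miR-3071-3p and miR-200a-5p include 0, and miR-183-5p, miR-193a-5p, let-7a-2-3p and miR-200a-5p differ most between treatments in relation to their size.

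**Figure D4:**
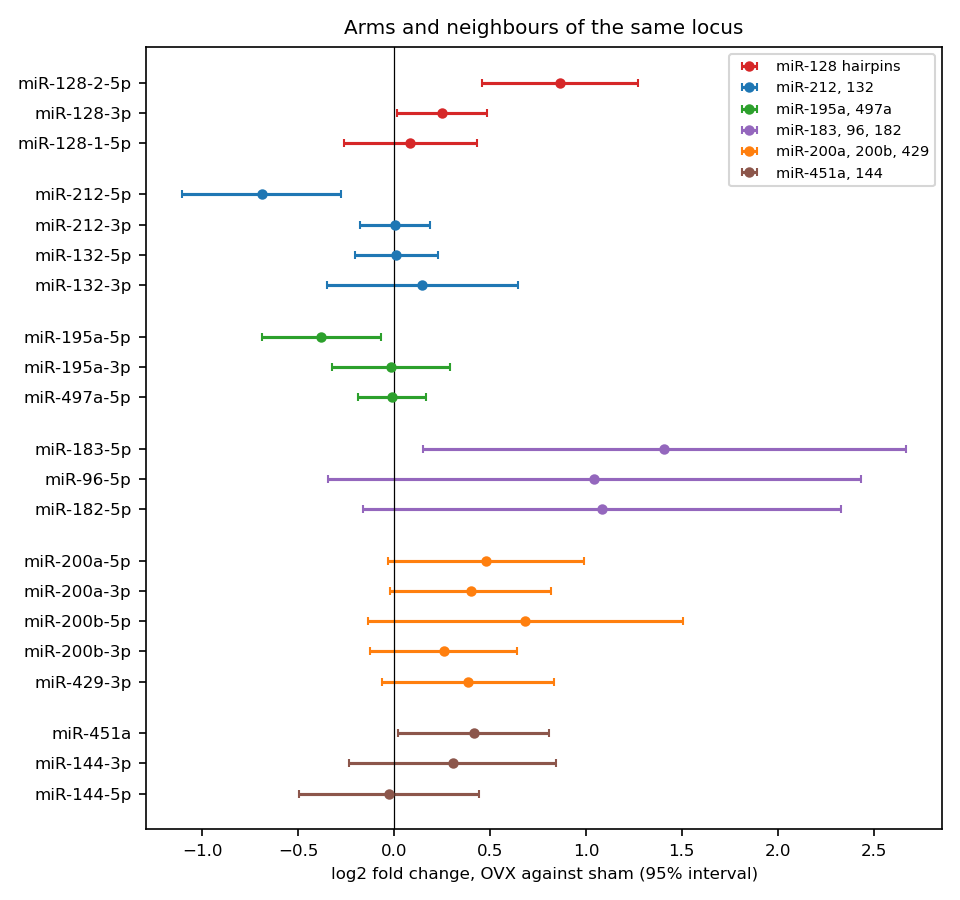
Log2 fold change of OVX against sham with 95% intervals (x axis) for arms and neighbours of 6 loci, in colours by locus. miR-212-5p and miR-195a-5p have negative values with intervals below 0, while those of their arm partners and neighbours include 0; differences between arms were not tested. The members of the miR-183 and miR-200 loci lie on the same side with wide intervals.

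Among the most abundant miRNAs the width of the interval varied. miR-124-3p, the most neuron-specific miRNA, had a log2 fold change of 0.00 (95% interval −0.19 to 0.19), and miR-218-5p, also enriched in neurons, had −0.02 (−0.22 to 0.17). miR-204-5p of the choroid plexus list, at 21262 CPM on average, had a wide interval, with 0.40 (−0.86 to 1.67). The 17 miRNAs of the neuron list, all tested, summed to between 153544 and 182146 CPM in sham and between 159814 and 187610 CPM in OVX libraries, and 9 were positive and 8 negative, with a median of 0.00. Of the 180 miRNAs at 100 CPM or more, 4 had an unadjusted edgeR p under 0.05, against 17 of all 605 (2.81%). For 168 of these 180 the whole 95% interval lay within a 2-fold change in either direction, and for 143 within a 1.5-fold change. Over all 605 these counts were 532 and 350. The median SE was 0.11 at 100 CPM or more and 0.23 in the 240 miRNAs under 10 CPM.

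Lists tied to estrogen by earlier work had medians near that of all miRNAs. None of the 8 tested miRNAs reported to target Esr1, which encodes estrogen receptor alpha, passed the edgeR test; 5 were positive and 3 negative, with a median of 0.03. Its most abundant members, miR-22-3p and miR-222-3p, had 0.01 (95% interval −0.14 to 0.16) and −0.05 (−0.31 to 0.21). Among 16 tested miRNAs reported to respond to estrogen, 9 were positive and 7 negative (median 0.00), and 12 of the 16 had opposite signs under the treatments. For the second most abundant of them, miR-9-5p, a miRNA of neural progenitors and neurons, the log2 fold change was 0.00, with −0.19 under saline and 0.20 under Xmo.

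No member of the lists for synaptic and glial biology passed the edgeR test. The 22 miRNAs of dendrites and plasticity split into 11 positive and 11 negative (median 0.00); miR-181a-5p, which acts on glutamate receptor subunits, had 0.09 (95% interval −0.17 to 0.34). The 4 astroglia miRNAs ran from −0.18 to −0.002 with a median of −0.08, led by miR-29a-3p at −0.08. The lowest, miR-143-3p, also stands in the smooth muscle and pericyte list, and the others belong to the miR-29 family. Of the 4 astroglia miRNAs, 2 were negative under both treatments and 2 had opposite signs. Without sham Xmo replicate 1 their median was 0.01. Of 6 oligodendrocyte miRNAs 4 were negative (median −0.06), and miR-219a-2-3p and miR-338-3p, which promote myelination, had −0.08 and −0.14. The 8 microglia and leukocyte miRNAs had a median of 0.04, and all 8 had opposite signs under saline and Xmo, with medians of −0.11 and 0.17. The 9 let-7 family members had a median of −0.05, with −0.20 under saline and 0.12 under Xmo.

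The 2 largest lists are imprinted clusters. The Dlk1-Dio3 cluster lies on chromosome 12, and its miRNAs are expressed from the maternal allele in neurons. Of its 80 tested members 53 were negative and 27 positive, with a median of −0.05. Under both treatments 31 were negative and 8 positive. Over all 605 tested miRNAs 320 were negative and 285 positive, with 163 negative and 124 positive under both. The most abundant member of the cluster, miR-127-3p, had 0.14 (95% interval −0.04 to 0.32). Under saline the cluster summed to 62955 to 64856 CPM in sham and 70233 to 75868 CPM in OVX libraries. Under Xmo it summed to 61694 to 66233 CPM in sham and 58845 to 63395 CPM in OVX libraries. In the Sfmbt2 cluster 24 of 34 tested members were positive (median 0.07), and the median was −0.03 with the 3 libraries above left out. Members of a cluster share a transcript and in part near-identical sequences, so they are not independent.

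**Figure D5:**
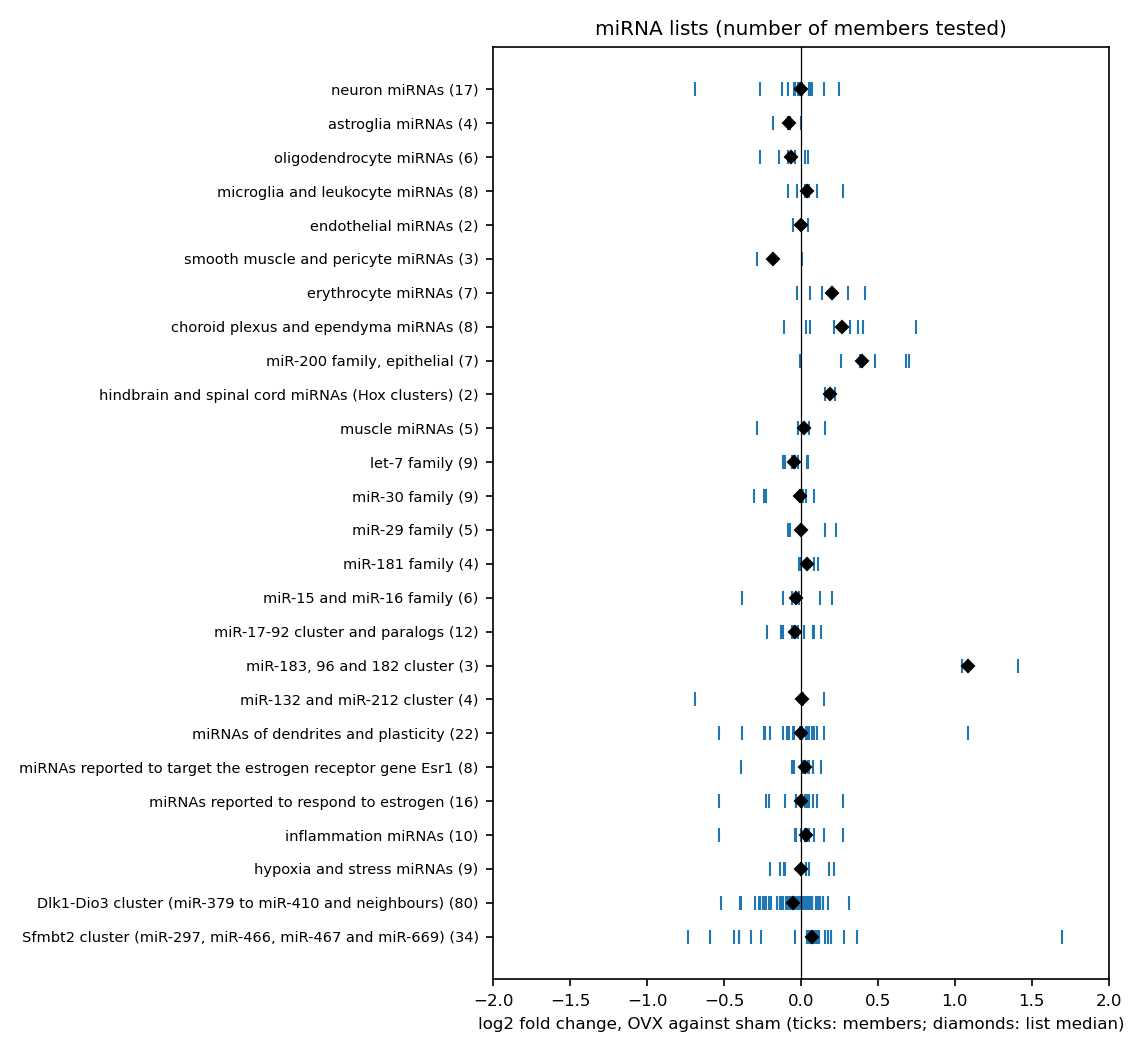
Log2 fold change of OVX against sham (x axis) of each tested member (ticks) of 26 miRNA lists, with the list median (diamonds) and the number of members tested in brackets. Most medians lie close to 0; those of the miR-183 cluster (1.08), the miR-200 family (0.40) and the choroid plexus and ependyma list (0.27) lie furthest to the right. The last turns to −0.11 without OVX saline replicate 3, and members may stand in more than 1 list.

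Of 12 host genes that hold a named miRNA, 11 were tested in the 15 separate mRNA libraries (7 sham, 8 OVX). In those libraries, sham saline correlated with the other groups at a median of 0.968 in log2 CPM, against 0.973 among pairs without a sham saline library. Within sham saline the median was 0.967 (3 pairs). None of the host genes passed the edgeR test of surgery, in which 0 of 19969 genes (0%) passed and 3507 (17.6%) had an unadjusted p under 0.05. Cpne7, a calcium-dependent membrane-binding protein and host of miR-7080-3p, had the smallest p of the hosts. It measured 123 to 237 CPM in sham (median 162) and 165 to 304 CPM in OVX (median 250), with overlap. Its log2 fold change was 0.43 (SE 0.15, edgeR p 0.00922, adjusted p 0.174), at 0.14 under saline and 0.69 under Xmo, opposite in sign to that of miR-7080-3p. The labels tie no miRNA library to an mRNA library, so levels could not be paired.

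The authors' deposited table compares OVX with sham within each treatment. In it 0 miRNAs had a q-value under 0.05 in either comparison; the smallest q-values were 0.0541 under saline and 0.104 under Xmo. Its p-values under 0.05 numbered 24 of 1258 under saline and 17 of 1270 under Xmo, and 2 miRNAs were in both. These were miR-128-2-5p, with log2 fold changes of 0.75 and 1.02 in the authors' deposited table, and miR-212-5p, with −0.64 and −0.69 there. That table was computed by the authors from the same libraries and is not independent of the tests above.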

How the data were processed

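RNA was extracted from hippocampi with Trizol, per the labels' protocols; FastQC 0.11.2, Trimmomatic 0.36, Bowtie2 2.3.2, StringTie 1.3.3b and the build GRCm38.p6 are named in the submitters' processing notes, with no role given. The deposited miRNA table holds read counts per mature miRNA and library, a score called exp whose scaling no source used here gives, and, per the file headers, log2 fold changes of the authors with p-values and q-values from DESeq2. Deposited mRNA read counts per gene were used for host genes.

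Counts were filtered by group (filterByExpr), scaled by TMM and tested with edgeR 4.0.16 in R 4.3.3 (quasi-likelihood F test, treatment plus surgery, 9 residual degrees of freedom); per-treatment and interaction values came from a 4-group model. Adjustment was Benjamini-Hochberg over all miRNAs or genes tested, at 0.05. SE and 95% intervals were derived from the quasi-likelihood p-values. The test was checked on simulated counts. Alternatives used DESeq2 1.42.0 and limma 3.58.1 (log2 of exp scaled to CPM plus 1). Named miRNAs were those with the smallest additive p and the same sign under both treatments, up to 20; from each list the 2 most abundant members could be named. Members, lists and rule were chosen with earlier results of these data known. Scaling factors were 0.940 to 1.06. Of 1387 deposited names, 1179 matched RefSeq. A further 12 columns of per-sample values belong to no labelled sample and were not used.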

Additional observations from a re-analysis of the deposited data

Results flagged for a closer look

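Of 73 groups of values checked, 6 held a library whose gap to its neighbour was large for the spread of its group; chance flags about 1 in 20 such groups. In the OVX libraries miR-183-5p measured 204.6 CPM in OVX saline replicate 3 against 65.96 CPM in the next. In the sham libraries miR-128-3p measured 3281 CPM in sham Xmo replicate 1 against 4704 CPM in the next lowest, and its log2 fold change without that library was 0.17. The other 4 were mRNA levels of host genes. Ctdsp2 measured 108.2 CPM in OVX saline replicate 3 against 45.36 CPM in the next. 2610203C20Rik measured 48.18 CPM in sham Xmo replicate 2 against 36.72 CPM, and 43.47 CPM in OVX Xmo replicate 2 against 35.69 CPM. Fam50a measured 19.04 CPM in OVX saline replicate 1 against 17.32 CPM.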

How the results depend on the processing

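The count of miRNAs past the surgery test was 0 under every alternative except DESeq2, which called 1, higher in OVX (the smallest adjusted p of the others ran from 0.0926 to 0.938). All 430 values of the named miRNAs under the alternatives kept their sign. The named miRNAs were chosen for a small p and equal signs in these same libraries. Their kept signs are therefore no evidence of an effect of surgery. The count moving the same way under both treatments, 2, was 1 with the replicate block and 1 with the 3 libraries high in choroid plexus miRNAs left out, an alternative chosen after seeing the data; it ran from 0 (without sham saline replicate 1 or OVX saline replicate 1) to 5 (without sham Xmo replicate 2). The count without overlap, 2, was 1 at a minimum of 10 CPM in 3 libraries, 6 with those 3 libraries left out, and 2 to 6 with 1 library left out. The interaction count was 0 to 1 (1 without OVX Xmo replicate 1). Replicate numbers did not pair the libraries: correlations of deviations ran from −0.517 to 0.396 over 18 same-numbered pairs, and 3 of 12 libraries correlated best with their own number.

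Of 24 partner arms and neighbours, 14 changed sign under at least 1 alternative, none of them above 0.15 in size in the reported fit. Host genes changed sign with Xmo libraries alone: Arpp21 0.19, R3hdm1 0.083, 5330434G04Rik 0.068 and Rtl1 −0.14. With 1 mRNA library left out, Arpp21 ran from −0.16 to 0.0034, R3hdm1 from −0.079 to 0.033, Fam50a from −0.036 to 0.015 and Rtl1 from −0.053 to 0.056. The cause was not tested. Read depth limits the rare miRNAs, with a median SE of 0.23 under 10 CPM.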

Other observations

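A few miRNAs were read in some libraries and nearly absent in others of the same group. Of all miRNAs in the table, 3 had at most 3 reads in 2 or more libraries and at least 100 reads in every other library; they were singled out after their values were seen. miR-669c-5p had 155, 234 and 177 reads in sham saline, 0 in each sham Xmo library, 3, 153 and 156 in OVX saline. OVX Xmo had 0, 185 and 170. miR-297c-5p had 620, 669 and 572 reads in sham saline, 0, 695 and 605 in sham Xmo, 661, 0 and 1 in OVX saline. OVX Xmo had 728, 0 and 639. miR-532-3p had 278, 158 and 2 reads in sham saline, 241, 2 and 2 in sham Xmo, 166, 234 and 122 in OVX saline. OVX Xmo had 2, 3 and 3. Low and high libraries occurred in both surgery groups for each of these miRNAs.

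The miRNAs whose surgery difference separated the groups in opposite directions under the treatments were 3: miR-1197-3p (log2 fold change −0.65 under saline and 0.57 under Xmo), miR-411-3p (−0.28 and 0.42) and miR-6899-3p (0.34 and −0.97). None passed the edgeR interaction test, each at an adjusted p of 0.647. As many, 3, separated them in the same direction under both: miR-128-2-5p, miR-3097-3p and miR-3099-5p (0.496%). Libraries of the same surgery were no more alike than libraries of different surgery, with a median correlation of log2 CPM of 0.982 within OVX, 0.980 within sham and 0.982 between OVX and sham.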
